A study of Homo sapiens with 4 samples.

Results

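The genes described here are 10 members of the ATF4 branch of the integrated stress response, ATF4, ATF5, DDIT3, TRIB3, CHAC1, DDIT4, SESN2, ASNS, PSAT1 and PHGDH. They were chosen by symbol, with earlier results of these data known. Each matched 1 of the 43714 Ensembl gene IDs in the deposited count table. They were measured by RNA sequencing in a reporter-positive and a reporter-negative line of MDA-MB-231, a human cell line from a triple-negative breast tumour, with 2 libraries per sorted line. Both lines descend from cells stably transfected with 7TGP, a reporter whose EGFP gene is driven by 7 copies of a TCF site and so reads out Wnt/beta-catenin transcription, and selected with puromycin at 3 μg/mL. After 8 rounds of expansion and sorting, more than 80% of the reporter-positive line was EGFP-positive and more than 95% of the reporter-negative line was EGFP-negative. The labels name the positive line MDA-MB-2317TGP-POS and the negative line, called the control, MDA-MB-2317TGP-NEG. The treatment label names the vector for the positive line only, whereas the design text and the protocol given for all 4 libraries describe both lines as sorted from the transfected cells. The account here follows those texts, and whether the negative line carries the vector was not tested. All 4 libraries carry the same batch label. Each reporter state is 1 sorted line, so an effect of Wnt reporter activity cannot be told apart from one of any other feature in which these lines differ, and fewer cells that express a gene cannot be told apart from less RNA of it per cell. Whether replicate libraries were grown as separate cultures is not labelled, so p-values measure only how far these libraries differ, which may be technical.

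In the integrated stress response, kinases that sense endoplasmic reticulum stress, amino acid shortage, double-stranded RNA or haem shortage phosphorylate the translation factor eIF2. General protein synthesis then slows, while the ATF4 mRNA, whose upstream open reading frames normally divert ribosomes, is translated more. ATF4 is a bZIP transcription factor that binds C/EBP-ATF response elements in genes for amino acid synthesis, amino acid uptake and tRNA charging, and in genes that restrain growth or end the response. Because ATF4 protein is set largely by translation, its mRNA level does not give its activity.

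The stress response genes were higher in the reporter-positive line in 6 of 10 cases and lower in none. The count of higher genes was 3 on scaling to total counts, where higher genes over the whole table also became fewer, as given below. Fewer of the 10 were also called without either reporter-negative library, which leaves 1 library in that line. Calls over all genes changed as well between the fits without single libraries. DDIT4, an inhibitor of the growth kinase mTORC1, rose 2.45-fold, TRIB3, a pseudokinase that restrains ATF4, rose 1.39-fold, and DDIT3, the gene of the transcription factor CHOP, rose 1.32-fold. ASNS, PHGDH and ATF4 rose by 22.1%, 20.1% and 17.4%. ATF5, CHAC1, SESN2 and PSAT1 did not pass the test. A gene is said to have risen or fallen only where edgeR's quasi-likelihood test gave a Benjamini-Hochberg adjusted p under 0.05 over the 30952 genes tested, and all 10 genes were among these. The same test called 11.6% of all genes higher and 10.9% lower, and 14.7% of protein-coding genes higher. The median log2 fold change of the 10 genes was 0.25, against -0.0046 for all genes tested. In 7 of the 10 genes both reporter-positive libraries lay above both reporter-negative libraries, and in 1, ATF5, both lay below. Over all genes tested 28.2% lay above without overlap and 29.5% below, and over protein-coding genes 30.9% and 32.7%.

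**Figure D1:**
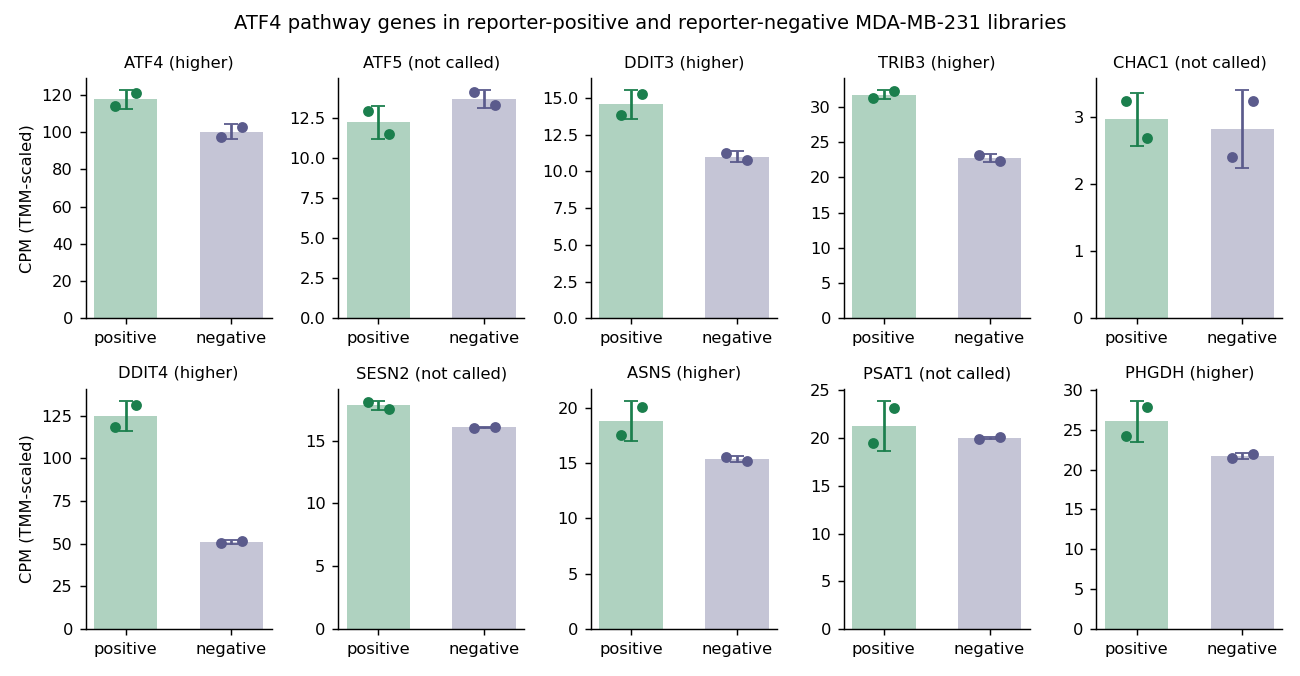
Level of each gene in TMM-scaled CPM (y axis from 0) in the reporter-positive (left, green) and reporter-negative (right, purple) line. Points are the 2 libraries, bars the mean and error bars the SD, and the libraries are clearly apart for DDIT4, at 119 and 131 CPM against 50.1 and 51.7 CPM, and mixed for CHAC1 and PSAT1.

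Gene counts totalled 62539034 and 55894092 in the reporter-positive libraries and 63034563 and 58429705 in the reporter-negative ones, and levels are given as CPM, a gene's count relative to the TMM-scaled size of its library. Reporter-positive library 2 had the lowest TMM factor, 0.938, against 1.01 to 1.05 in the others, and it was the higher of the reporter-positive pair for ATF4, DDIT3, TRIB3, DDIT4, ASNS, PSAT1 and PHGDH. Scaling to total counts in place of TMM turned 3576 higher and 3366 lower genes into 2270 higher and 4032 lower, with all genes at a median log2 fold change of -0.09. Of the markers of the labelled mesenchymal line, VIM was at 1257 and 1343 CPM in the reporter-positive and 2714 and 2625 CPM in the reporter-negative libraries, a fall (edgeR, adjusted p = 1.91e-07). CD44, at 263 and 298 CPM against 242 and 236 CPM, and SNAI2, at 15.6 and 16.9 CPM against 10.9 and 9.96 CPM, rose (edgeR, adjusted p = 0.0373 and 3.45e-05), and AXL, at 768 CPM or more in all 4, did not pass. The luminal markers ESR1, PGR, GATA3 and FOXA1 summed to 9.87 and 9.45 CPM against 9.53 and 8.32 CPM, most of it ESR1 and GATA3. FOXA1 rose from a low level, at 0.525 and 0.973 CPM against 0.110 and 0.0651 CPM (edgeR, adjusted p = 1.17e-04), and the other 3 did not pass. The 4 leukocyte markers summed to 6.97 and 6.70 CPM against 4.79 and 5.58 CPM, with CD3E and CD79A too low to test. Of the endothelial markers CDH5 and VWF were at 1.55 CPM or less, and PECAM1 ran from 58.9 to 88.9 CPM. Of the adipocyte markers ADIPOQ and LEP were too low to test and PLIN1 was at 0.924 and 0.611 CPM against 1.18 and 1.25 CPM.

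The counts hold reads from introns and from both strands, and a read can be counted at more than 1 gene. For 1358 genes that had at least 100 counts in every library and lay inside another gene without sharing an exon with it, 852 of them on the opposite strand, the outer gene had at least as many counts in every library in all 1358 cases. For ATF5, DDIT3, DDIT4 and ASNS, which overlap other listed genes, part of the count can therefore belong to a neighbour, and these genes are given below with the overlapping genes that reach 10% of their counts. ATF4, TRIB3, CHAC1, SESN2, PSAT1 and PHGDH overlap no listed gene.

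The C/EBP-ATF response element, searched as TGATGNAA on both strands in the RefSeq promoter windows (GRCh38.p14, 250 bases before to 50 after each annotated start), was found in 2 of the 10 genes, ASNS and CHAC1. It occurs in 4.48% of the 27058 genes that have such a window and in 3.50% of the 14523 listed protein-coding genes with one. All 10 genes had at least 1 window. In ASNS the match began at position -68, in chr7:97872458-97872487 on the reverse strand, and in CHAC1 it lay on the opposite strand to the gene and began at position -209, in chr15:40953251-40953280. The strict form TGATGCAA, present in 1.09% of genes, was found in CHAC1 only among the 10. The 30 bases around each match are shown with the match in capitals, because ASNS and CHAC1 share the element and only ASNS was called higher. A difference between these genes was not tested. The interval of the log2 fold change of CHAC1, -0.31 to 0.47, holds the value of ASNS, 0.29. The stretches of ASNS and CHAC1 are followed by those of 4 other genes of the pathway described further on (CEBPG, SLC1A4, AARS1 and MARS1). All 4 were called higher, so they do not stand for all genes with the element. Of the 20 tested genes with it in the pathway lists given further on, 10 rose, 9 did not pass and 1, TSC2, fell.

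ASNS: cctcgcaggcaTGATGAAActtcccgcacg
CHAC1: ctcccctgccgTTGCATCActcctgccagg
CEBPG: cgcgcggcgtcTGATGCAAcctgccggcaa
SLC1A4: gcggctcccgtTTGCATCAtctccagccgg
AARS1: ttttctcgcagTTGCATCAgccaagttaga
MARS1: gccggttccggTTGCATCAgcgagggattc

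The stretches of CEBPG (chr19:33374060-33374089), SLC1A4 (chr2:64989381-64989410) and MARS1 (chr12:57488053-57488082) are on the forward strand and that of AARS1 (chr16:70289675-70289704) on the reverse strand. CEBPG holds the element in the orientation of its gene, as ASNS does, and CHAC1, SLC1A4, AARS1 and MARS1 hold it in reverse, as TTGCATCA. The other 8 genes had no match in these windows, which says only that these letters are not there. None of the 10 genes held the TCF core CTTTGAT, found in 3.19% of genes, the cyclic AMP response element TGACGTCA, found in 2.24%, or the full endoplasmic reticulum stress element, found in 0.0924%.

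Among the transcription factors, ATF4 (ENSG00000128272, chr22:39519695-39522685, forward strand), the factor the response is named for, was at 114 and 121 CPM in the reporter-positive libraries, against 97.5 and 103 CPM in the reporter-negative libraries. The groups did not overlap, by a gap of 11.1 CPM. Means were 118 ± 5.06 CPM and 100.3 ± 3.92 CPM (SD, n = 2 each), and the log2 fold change was 0.23 ± 0.07 (SE; edgeR, adjusted p = 0.0258). The call was lost on scaling to total counts, with ATF4 at 115 and 114 against 98.2 and 108 CPM of total counts (edgeR, adjusted p = 0.166), and without reporter-negative library 1 or 2 (adjusted p = 0.412 and 0.188 by the same test).

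ATF5 (ENSG00000169136, chr19:49928702-49933935, forward strand) encodes a related bZIP factor that is also controlled through upstream open reading frames and serves mitochondrial stress. It was at 12.9 and 11.5 CPM in the reporter-positive and 14.1 and 13.3 CPM in the reporter-negative libraries, so that it lay lower without overlap, but by a gap of only 0.356 CPM. The log2 fold change was -0.16 with a 95% interval of -0.36 to 0.04 (edgeR, adjusted p = 0.265). NUP62 on the opposite strand shares 626 exonic bases with ATF5 and had 484% of its counts over the 4 libraries, and IL4I1, on that strand too, had 488%. ENSG00000269179, which spans all of ATF5 on that strand, had 246% and MIR4751, on the strand of ATF5, 10.6%. None of these 4 genes was called. NUP62 itself was at 62.3 CPM in the reporter-positive and 63.5 CPM in the reporter-negative line (edgeR, adjusted p = 0.850).

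DDIT3 (ENSG00000175197, chr12:57516588-57521737, reverse strand) encodes CHOP, a C/EBP family factor that forms dimers with other bZIP proteins and is linked to cell death under prolonged stress. Its levels were 13.9 and 15.3 CPM in the reporter-positive libraries, against 11.3 and 10.8 CPM in the reporter-negative libraries. Both reporter-positive libraries were higher, with means of 14.6 ± 0.990 CPM and 11.0 ± 0.352 CPM (SD, n = 2 each), and the log2 fold change was 0.40 ± 0.09 (SE; edgeR, adjusted p = 0.00343). Without reporter-negative library 2 the call was lost (edgeR, adjusted p = 0.0630). DDIT3 shares 355 exonic bases with MARS1 on the opposite strand, the methionyl-tRNA synthetase gene, which had 704% of its counts and rose by 0.30 on the log2 scale (edgeR, adjusted p = 0.00493). ENSG00000285133, which lies inside DDIT3 on the same strand, had 25.6% of its counts and also rose, by 0.50 (edgeR, adjusted p = 0.0287). With the counts of that inner gene taken away, DDIT3 stood at 9.92 and 11.5 CPM against 8.50 and 8.11 CPM, and the log2 fold change was 0.37 (edgeR, adjusted p = 0.0186). MBD6, which shares 58 exonic bases with DDIT3 on the opposite strand, had 48.5% of its counts and was not called (edgeR, adjusted p = 0.298). The part that reads of MARS1 and MBD6 play in the DDIT3 count was not tested.

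Of the genes that restrain growth or feed back on the response, DDIT4 (ENSG00000168209, chr10:72273920-72276036, forward strand) changed most. DDIT4, also called REDD1, restrains mTORC1 through the TSC1-TSC2 complex and is known to respond to hypoxia, glucocorticoids and DNA damage as well as to ATF4. It was at 119 and 131 CPM in the reporter-positive libraries, against 50.1 and 51.7 CPM in the reporter-negative libraries, and the gap between the lines was 66.9 CPM. Means were 125 ± 9.0 CPM and 50.9 ± 1.11 CPM (SD, n = 2 each), and the log2 fold change was 1.30 ± 0.08 (SE), with a 95% interval of 1.14 to 1.45 (edgeR, adjusted p = 6.58e-11). This log2 fold change exceeded that of 98.1% of the genes tested. DDIT4 passed under each of the 12 alternatives in which it was tested, with log2 fold changes of 1.21 to 1.37.

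DDIT4-AS1, an antisense gene that lies wholly inside DDIT4 and shares 847 exonic bases with it, had 67.4% of its counts and was at 83.9 CPM in the reporter-positive and 34.5 CPM in the reporter-negative line. Without strand in the counting, reads of DDIT4 and DDIT4-AS1 cannot be told apart where they overlap. With the antisense counts taken away, the remainder of DDIT4 was at 39.5 and 42.4 CPM against 16.3 and 16.4 CPM, a log2 fold change of 1.32. The DDIT4 promoter, chr10:72273674-72273919 on the forward strand, is printed because this gene moved most among the 10. Capitals mark the match to ACGTG, the core of the hypoxia response element, and both matches to CCAAT, here in reverse as ATTGG.

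DDIT4: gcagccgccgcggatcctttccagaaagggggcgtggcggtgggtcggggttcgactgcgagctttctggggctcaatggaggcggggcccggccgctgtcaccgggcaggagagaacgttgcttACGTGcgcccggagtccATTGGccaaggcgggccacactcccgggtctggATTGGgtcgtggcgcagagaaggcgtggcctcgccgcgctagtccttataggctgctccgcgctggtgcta

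The ACGTG match begins at position -125 from the start, and the letters, searched on both strands, occur in the windows of 24.8% of all genes and of 2 of the 10, DDIT4 and ATF4. CCAAT occurs in the windows of 39.8% of all genes and of 6 of the 10, DDIT4, DDIT3, CHAC1, SESN2, PSAT1 and PHGDH.

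TRIB3 (ENSG00000101255, chr20:362835-397559, forward strand) encodes a pseudokinase that is induced by ATF4 and CHOP, binds ATF4 to restrain it and also binds AKT. It was at 31.3 and 32.2 CPM in the reporter-positive libraries, against 23.2 and 22.3 CPM in the reporter-negative libraries. Replicates differed by less than 1 CPM and the lines by a gap of 8.07 CPM. Means were 31.8 ± 0.681 CPM and 22.8 ± 0.608 CPM (SD, n = 2 each), and the log2 fold change was 0.48 ± 0.08 (SE; edgeR, adjusted p = 7.73e-05). TRIB3 passed under each of the 13 alternatives, with log2 fold changes of 0.40 to 0.51.

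CHAC1 (ENSG00000128965, chr15:40952962-40956519, forward strand) encodes an enzyme that breaks down glutathione and is widely used as a marker of ATF4 activity. It was the lowest of the 10, with 204 and 141 counts, or 3.25 and 2.69 CPM, in the reporter-positive libraries, and 153 and 199 counts, or 2.41 and 3.24 CPM, in the reporter-negative libraries. The libraries of the lines overlapped. The log2 fold change was 0.08 with a 95% interval of -0.31 to 0.47 (edgeR, adjusted p = 0.837), so that a change the size of that of TRIB3 lies just outside the interval and one the size of that of DDIT3 inside it.

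SESN2 (ENSG00000130766, chr1:28259527-28282491, forward strand) encodes a sestrin, a leucine sensor that restrains mTORC1 and a target of ATF4, p53 and NRF2. It stood at 18.1 and 17.5 CPM in the reporter-positive and 16.0 and 16.1 CPM in the reporter-negative libraries. The libraries did not overlap, yet the log2 fold change of 0.15 had a 95% interval of -0.02 to 0.32, too wide to pass (edgeR, adjusted p = 0.230). On scaling to total counts the libraries of the lines overlapped, at 18.1 and 16.4 CPM against 16.1 and 16.9 CPM.

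**Figure D2:**
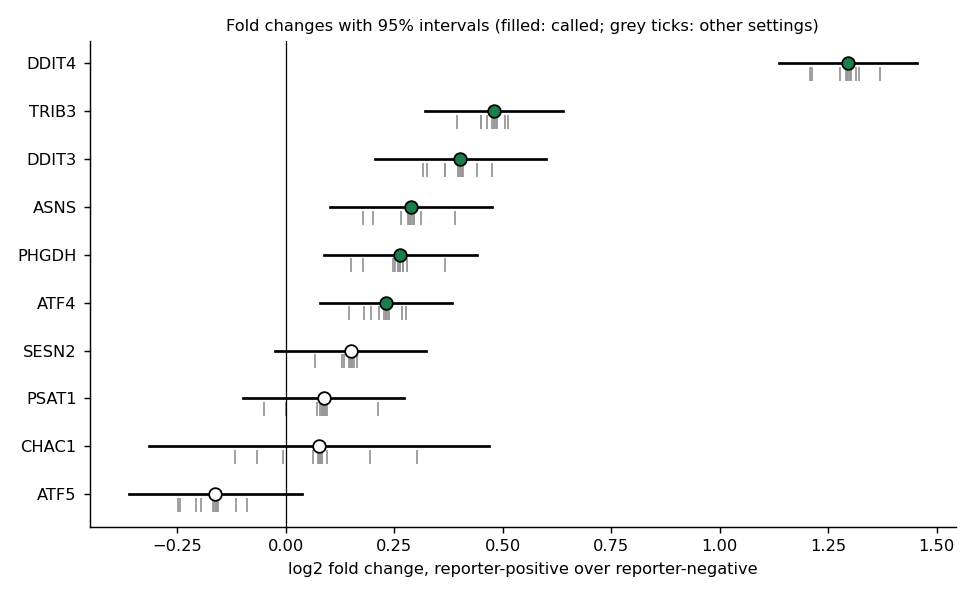
Log2 fold change of each gene, reporter-positive over reporter-negative (x axis), ordered from the highest at the top, with 95% intervals as lines, filled circles for genes called by edgeR and open circles for the others. Grey ticks are the values under the other settings and without single libraries. DDIT4, at 1.30, lies apart from the next gene, TRIB3, at 0.48.

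Among the amino acid synthesis genes both calls were small and were lost without any 1 of 3 libraries. ASNS (ENSG00000070669, chr7:97852118-97872542, reverse strand) encodes asparagine synthetase, and the response element shown above in its promoter is the site through which amino acid shortage is known to induce it. It was at 17.5 and 20.1 CPM in the reporter-positive libraries, against 15.6 and 15.2 CPM in the reporter-negative libraries. The higher of these, reporter-positive library 2, widened the spread of its line. Means were 18.8 ± 1.85 CPM and 15.4 ± 0.295 CPM (SD, n = 2 each), and the log2 fold change was 0.29 ± 0.09 (SE; edgeR, adjusted p = 0.0232). Without reporter-positive library 2 the log2 fold change was 0.18 and no longer passed (edgeR, adjusted p = 0.181), and the call was also lost without reporter-negative library 1 or 2 (adjusted p = 0.104 and 0.182), on scaling to total counts (adjusted p = 0.145) and with DESeq2 (adjusted p = 0.0716). ENSG00000284707, a longer transcript gene that spans ASNS on the same strand, had 209% of its counts. The part of that gene beyond the ASNS count ran over 18.3 to 18.9 CPM in the reporter-positive libraries, within the range of the reporter-negative libraries.

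PHGDH (ENSG00000092621, chr1:119648411-119744226, forward strand) encodes the first enzyme of serine synthesis from glycolysis. It was at 24.2 and 27.9 CPM in the reporter-positive libraries, against 21.4 and 21.9 CPM in the reporter-negative libraries. The pattern over the libraries was that of ASNS, with reporter-positive library 2 highest. Means were 26.0 ± 2.63 CPM and 21.6 ± 0.373 CPM (SD, n = 2 each), and the log2 fold change was 0.26 ± 0.08 (SE; edgeR, adjusted p = 0.0273). Its call was lost under the same 5 alternatives as that of ASNS, with a log2 fold change of 0.15 without reporter-positive library 2 (edgeR, adjusted p = 0.214) and an adjusted p of 0.0713 with DESeq2.

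PSAT1 (ENSG00000135069, chr9:78297143-78330093, forward strand) encodes the aminotransferase that acts after PHGDH in the same pathway. It was at 19.4 and 23.2 CPM in the reporter-positive and 19.9 and 20.1 CPM in the reporter-negative libraries. Reporter-positive library 1 lay below both reporter-negative libraries and library 2 above them. The log2 fold change was 0.09 with a 95% interval of -0.10 to 0.27 (edgeR, adjusted p = 0.564), an interval that also holds the value of PHGDH, 0.26.

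Per kb of annotated exon, DDIT4 had the highest level of the 10 genes in the reporter-positive line, 60.7 ± 4.37 CPM per kb, and ATF4 the next, 46.8 ± 2.01 CPM per kb (SD, n = 2 each). In the reporter-negative line the order of this pair was the other way, with ATF4 at 39.9 ± 1.56 CPM per kb and DDIT4 at 24.7 ± 0.537 CPM per kb. DDIT3, PSAT1 and TRIB3 followed in the reporter-positive line, at 11.1 ± 0.757, 9.74 ± 1.20 and 9.25 ± 0.198 CPM per kb, and SESN2, ASNS, ATF5, PHGDH and CHAC1 ran from 5.16 to 1.44 CPM per kb. In that line PSAT1 and TRIB3 did not differ beyond their spread, nor did ASNS, at 4.22 ± 0.415 CPM per kb, and ATF5, at 4.13 ± 0.341 CPM per kb. In the reporter-negative line PSAT1, at 9.15 CPM per kb, stood above DDIT3, at 8.42 CPM per kb, and SESN2 and ATF5 did not differ beyond their spread, at 4.65 ± 0.00765 and 4.63 ± 0.190 CPM per kb. The place of DDIT4 rests on counts that include those of DDIT4-AS1. With these taken away and the exon length kept, DDIT4 was at 19.9 CPM per kb in the reporter-positive and 7.96 CPM per kb in the reporter-negative line, below ATF4 in both. DDIT3 less its inner gene was likewise at 8.21 and 6.35 CPM per kb, below PSAT1 and TRIB3 in both lines. Taking counts away while keeping the length can only lower a value, and some of those reads may be the gene's own. The remainders therefore do not settle the place of DDIT4 or DDIT3. These levels also include reads in introns, and the share of introns differs between the genes, with 9.22 kb of exon in the 95.8 kb span of PHGDH and 2.06 kb in the 2.12 kb span of DDIT4.

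Ratios to ATF4 within a library do not depend on how libraries are scaled. On the log2 scale, the ratio of DDIT4 to ATF4 was higher by 1.06 in the reporter-positive line than in the reporter-negative line, that of TRIB3 by 0.25 and that of DDIT3 by 0.17, and for each of these 3 genes the libraries of the lines did not overlap. The same difference was 0.06 for ASNS and 0.03 for PHGDH, with libraries that overlapped. It was -0.08 for SESN2, -0.15 for both CHAC1 and PSAT1, and -0.40 for ATF5. The libraries of the lines did not overlap for ATF5 and PSAT1, both lower in the reporter-positive line, and overlapped for SESN2 and CHAC1. The gap for PSAT1 was small, at -2.39 in reporter-positive library 2 against -2.36 in reporter-negative library 2. No test was run on these ratios. The share of all genes whose ratio to ATF4 lies apart in this way was not taken, so the separations have no background beside them.

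To see whether whole chromosome stretches differed between the lines, the genes were set beside their neighbours. Of the 20 nearest tested protein-coding genes around DDIT4, 10 on each side, none rose, 1 fell and all 20 had a lower log2 fold change than DDIT4, with a median of -0.0077. Around TRIB3, near the end of chromosome 20, 14 neighbours had a median of 0.03, with 1 higher and 2 lower. Around DDIT3 3 of 20 rose and none fell, with a median of 0.08. Of these neighbours SHMT2, which rose, and INHBE, which did not pass, are also in the pathway lists given below. So is a neighbour of ATF5 that fell. Around PSAT1 3 rose and 6 fell of 20, with a median of -0.15, and around PHGDH 5 rose and 2 fell, with a median of 0.11. Around ATF5 none of 20 rose and 4 fell, with a median of -0.11, and around ATF4 3 rose and 2 fell. Of the neighbours of CHAC1 2 rose and none fell, of those of SESN2 2 rose and 2 fell, and of those of ASNS 1 rose and 1 fell. These counts stand against 14.7% of protein-coding genes higher and 14.8% lower, and were not tested. The neighbours spanned 27.3 Mb for PHGDH, 8.92 Mb for PSAT1 and 4.49 Mb for ASNS, against 0.632 to 2.04 Mb for the other genes. The stretches are therefore not alike in length.

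**Figure D3:**
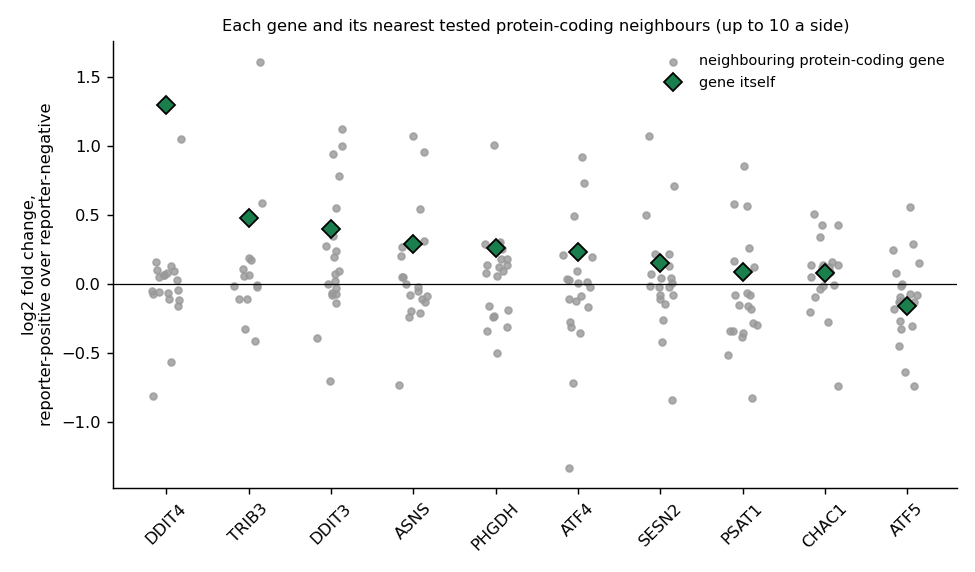
Log2 fold change, reporter-positive over reporter-negative (y axis), of each of the 10 genes (green diamonds) and of its nearest tested protein-coding neighbours on the chromosome that do not overlap it (grey points, up to 10 on each side). DDIT4, at 1.30, lies above all 20 of its neighbours, whereas CHAC1, at 0.08, lies above 9 of 20.

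Other genes of the pathway were counted from 10 lists, of which 144 of 146 genes were tested. Of these, 56 rose, 9 fell and 79 did not pass, with a median log2 fold change of 0.16. The counts of these lists in the main fit, here and below, stand against 11.6% of all genes higher and 10.9% lower, and 14.7% and 14.8% of protein-coding genes. List counts given for other settings have no such share beside them, and calls over all genes changed between settings too. Without reporter-negative library 1 the counts were 27 and 4, without reporter-negative library 2 they were 28 and 4, and on scaling to total counts they were 34 and 14. The lists were compiled from general knowledge of the pathway but, like the 10 genes, with earlier results of these data known. Their counts beside the shares of all genes are therefore a description and not a test. Of the 36 called genes that lead them, up to 4 a list by smallest adjusted p, 19 were called under every alternative in which they were tested, 14 were lost without reporter-negative library 1, as many without reporter-negative library 2, and 7 on scaling to total counts.

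The genes that switch the response on and off at eIF2 comprised the kinases, phosphatase subunits, eIF2, its exchange factor eIF2B, and the upstream or linked factors GCN1, IMPACT, OMA1, DELE1 and QRICH1. Of 19 tested, 2 rose, 2 fell and 15 did not pass, shares near those of all genes, with a median of 0.0074. EIF2AK2, the kinase PKR that senses double-stranded RNA, which overlaps GPATCH11, rose to 56.6 CPM, against 48.0 CPM in the reporter-negative line (edgeR, adjusted p = 0.0312). Its call was lost under 4 of 12 alternatives, which were total count scaling and the fits without reporter-negative library 1, reporter-negative library 2 or reporter-positive library 1. The eIF2B subunit gene EIF2B2, which overlaps ENSG00000258646, rose by 0.32 on the log2 scale, while EIF2B1, which overlaps DDX55, fell by 0.31 and EIF2S2, the gene of eIF2 beta, which overlaps RALY, fell by 0.29. On scaling to total counts none rose and 3 fell, with a median of -0.0769 and with EIF2AK2 and EIF2B2 not called (edgeR, adjusted p = 0.265 and 0.0538). Fewer genes of this list were called without either reporter-negative library and more without reporter-positive library 1, and calls over all genes changed too. EIF2AK3, the kinase PERK, was at 18.3 and 19.7 CPM in the reporter-positive and 17.6 and 16.2 CPM in the reporter-negative libraries (edgeR, adjusted p = 0.169). EIF2AK4, the kinase GCN2, was at 90.7 CPM in the reporter-positive and 102 CPM in the reporter-negative line (edgeR, adjusted p = 0.0932), and PPP1R15A, a phosphatase subunit that ends the response and is itself a CHOP target, at 65.9 and 65.6 CPM (edgeR, adjusted p = 0.962). EIF2AK3 was called higher under 1 of 12 alternatives and EIF2AK4 lower under 2 of 12.

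Among bZIP factors that pair with ATF4 or CHOP, 5 of 15 were higher, none was lower and 10 were not called, with a median of 0.19. CEBPD and CEBPB changed most. CEBPD rose 1.96-fold, to 27.6 and 27.3 CPM in the reporter-positive libraries, against 12.9 and 15.2 CPM in the reporter-negative libraries. CEBPB, which overlaps CEBPB-AS1, rose by 0.58 on the log2 scale to 51.7 and 54.2 CPM, against 34.5 and 36.2 CPM. CEBPG, a partner of ATF4 on amino acid response genes, rose 1.23-fold to 28.4 and 28.7 CPM, against 23.5 and 23.1 CPM (edgeR, adjusted p = 0.00743), and holds the response element shown above. The calls of CEBPD and CEBPB held under every alternative, whereas CEBPG was lost on scaling to total counts and without either reporter-negative library. MAFF, which overlaps PLA2G6, rose 1.25-fold and was lost without reporter-negative library 1. ATF3, a stress-induced relative of ATF4, rose 1.32-fold (edgeR, adjusted p = 0.0445) and was lost under 6 of 13 alternatives, among them total count scaling and the fits without either reporter-negative library or reporter-positive library 2. CEBPA was at 0.175 and 0.286 CPM against 0.268 and 0.228 CPM and did not pass. Fewer genes of this list were called without either reporter-negative library and more without reporter-positive library 1, and calls over all genes changed too.

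Of 22 further ATF4 and CHOP target genes 10 rose, 12 did not pass, none was lower and the median was 0.22. GDF15, a secreted stress hormone, rose 2.14-fold to 16.5 and 16.9 CPM, against 7.81 and 7.80 CPM (edgeR, adjusted p = 2.72e-08). PMAIP1, which encodes the pro-death protein NOXA, rose 1.43-fold to 77.1 and 87.6 CPM, against 57.9 and 57.6 CPM. STC2, a secreted glycoprotein gene, rose 2.07-fold from a low level, at 1.61 and 1.51 CPM against 0.661 and 0.847 CPM, and PCK2, a mitochondrial enzyme gene that overlaps NRL, rose 1.37-fold. STC2 was lost without reporter-negative library 1. The list had 4 called genes without reporter-negative library 1, 6 without library 2 and 5 on scaling to total counts. FGF21 was too low to test.

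**Figure D4:**
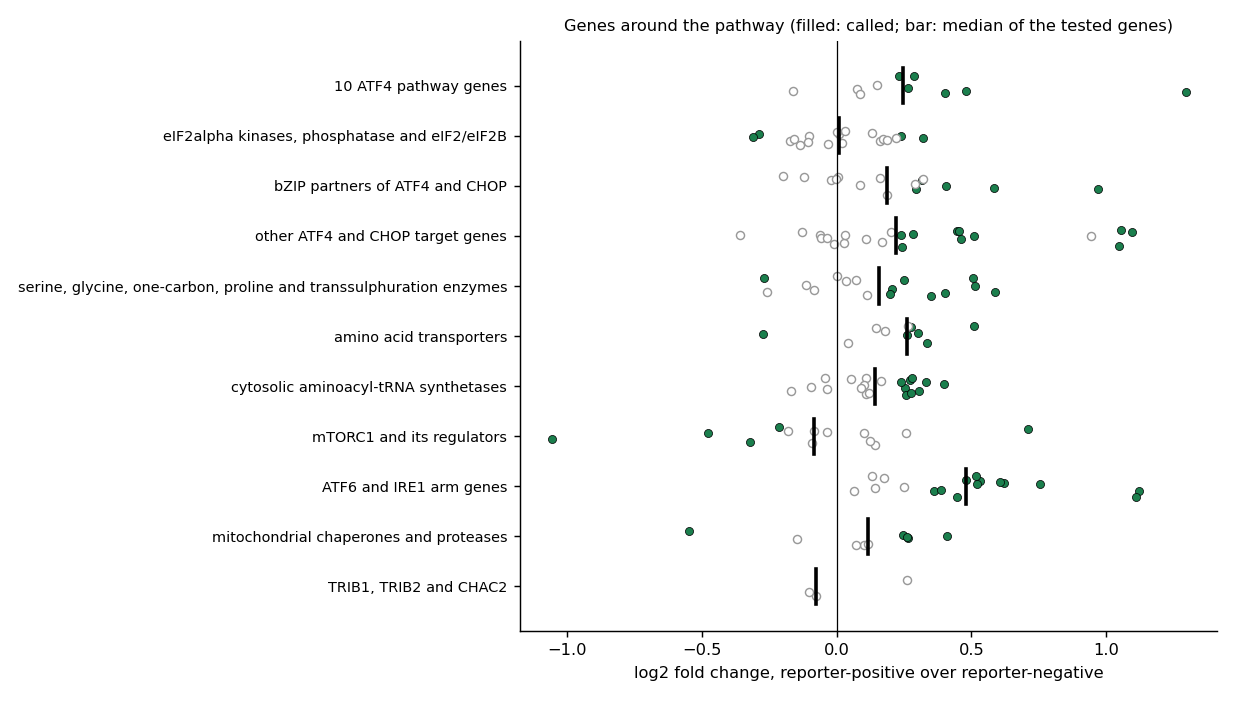
Log2 fold change, reporter-positive over reporter-negative (x axis), of the 10 genes (top row) and of the tested genes of the pathway lists (1 row each). Filled points are genes called by edgeR, open points the others, and the black bar is the median, which is 0.25 for the 10 genes, 0.0074 for the eIF2 genes and 0.48 for the ATF6 and IRE1 arm genes.

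Enzymes of serine, glycine, one-carbon, proline and transsulphuration metabolism rose in 8 of 16 cases, with 1 that fell, 7 that did not pass and a median of 0.16. The proline synthesis genes ALDH18A1 and PYCR1, the second of which overlaps ENSG00000263585, rose 1.43-fold and 1.42-fold. ALDH18A1 was at 71.9 and 77.8 CPM in the reporter-positive libraries, against 51.9 and 52.9 CPM in the reporter-negative libraries. The mitochondrial one-carbon genes SHMT2, whose enzyme takes one-carbon units from serine, and MTHFD2, whose enzyme oxidises the folate that carries them, rose 1.28-fold and 1.32-fold, and MTHFD2 overlaps ENSG00000264324, which had 258% of its counts. SHMT2 was lost without reporter-negative library 2. The list had 5 called genes without reporter-negative library 1, 3 without library 2 and 5 with DESeq2.

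Amino acid transporter genes rose in 5 of 10 tested cases, with 1 that fell and a median of 0.26. SLC1A4, a neutral amino acid carrier, rose 1.42-fold to 11.6 and 12.6 CPM, against 8.66 and 8.35 CPM (edgeR, adjusted p = 8.42e-04). The cationic carrier gene SLC7A1 rose 1.26-fold and SLC3A2, the gene of a heavy chain shared by several carriers, 1.20-fold. SLC1A4 was called under every alternative, SLC7A1 was lost without reporter-negative library 2, and SLC3A2 was lost without either reporter-negative library and on scaling to total counts. SLC7A11, the gene of the cystine carrier that pairs with SLC3A2, which overlaps SLC7A11-AS1, was at 62.0 and 54.8 CPM in the reporter-positive and reporter-negative line (edgeR, adjusted p = 0.0903). SLC7A11 was called higher under 1 of 12 alternatives. SLC7A3 was too low to test. The list had 3 called genes without reporter-negative library 1 and 2 without library 2.

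Cytosolic aminoacyl-tRNA synthetases, which charge tRNAs with amino acids, were higher for 9 of 20 genes and lower for none, with a median of 0.14, and by no more than 0.40 on the log2 scale. TARS1 rose to 197 and 217 CPM, against 157 and 157 CPM, and AARS1 to 116 and 126 CPM, against 94.6 and 98.0 CPM. MARS1, which shares reads with DDIT3, rose 1.23-fold and GARS1, which overlaps GARS1-DT, 1.21-fold. Without reporter-negative library 1 or 2 the list had 1 called gene, and AARS1, MARS1 and GARS1 were not called. Without reporter-positive library 1 more genes of the list were called than in the main fit, and on scaling to total counts 5 were. Calls over all genes changed too.

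The response element TGATGNAA was found in the promoter windows of 21 of the 113 listed genes that had one, or 18.6%, against 4.48% of all genes. The shares differed between lists, with 7 of 16 synthetase genes, 5 of 9 transporter genes, 3 of 13 bZIP genes and 2 of 8 metabolic enzyme genes. The element was in 1 of 16 further ATF4 and CHOP target genes, 1 of 16 eIF2 genes and 1 of 17 ATF6 and IRE1 arm genes. It was in 1 of 10 mTORC1 genes, 0 of 6 mitochondrial chaperone and protease genes and 0 of 2 relatives of the 10 genes. Of the 20 tested genes with the element 10 rose, 1 fell and 9 did not pass, with a median log2 fold change of 0.22, and of the 92 without it 35 rose, 5 fell and 52 did not pass, with a median of 0.14. No test was run on this difference, and the windows with and without the element also differ in which lists they come from. In the ATF6 and IRE1 arm list, 12 of 16 genes without the element rose. The gene with the element that fell was TSC2, which holds the strict form TGATGCAA at position -110.

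Around mTORC1, the kinase that DDIT4 and SESN2 restrain, 1 of 13 genes rose, 4 fell and 8 did not pass, with a median of -0.09. The genes of both partners through which DDIT4 acts were lower: TSC1 was at 45.5 and 42.0 CPM in the reporter-positive libraries, against 63.3 and 58.4 CPM in the reporter-negative libraries (edgeR, adjusted p = 6.55e-05), and TSC2, which overlaps PKD1, at 74.7 and 67.5 CPM, against 83.4 and 81.7 CPM (adjusted p = 0.0411 by the same test). The TSC1 call held under every alternative, while that of TSC2 was lost under 5 of 12, among them RLE scaling, DESeq2 and the fits without reporter-negative library 1, reporter-negative library 2 or reporter-positive library 2. RHEB, which overlaps ETF1P2 and encodes the GTPase that TSC2 switches off and that activates mTORC1, rose 1.63-fold to 51.7 and 56.4 CPM, against 33.7 and 32.4 CPM. SESN3, a sestrin gene like SESN2 that overlaps LNCRNA-IUR, fell to 15.8 and 17.0 CPM, against 35.9 and 32.4 CPM, a log2 fold change of -1.06. Without reporter-negative library 2 the list had 3 called genes.

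Genes of the other arms of the unfolded protein response, run by ATF6 and IRE1, were higher for 12 of 17 and lower for none, with a median of 0.48. In all 17 both reporter-positive libraries lay above both reporter-negative ones, against 28.2% of all genes. ERN1, the gene of IRE1 itself, rose 1.69-fold to 35.4 and 35.5 CPM, against 21.5 and 20.4 CPM. The chaperone and folding genes PDIA4, HYOU1 and DNAJC3 rose 2.18-fold, 2.16-fold and 1.52-fold, and HYOU1 overlaps ENSG00000255114. Nothing was tested between this list and the 10 ATF4 genes.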

How the data were processed

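RNA of 4 libraries was measured, and the authors deposited raw read counts per Ensembl gene ID, used as they stand. Per the submitters' processing notes, HISAT2, Bowtie2, DESeq2 and build hg19 were used, with no roles or versions. How reads were assigned to genes, and whether by strand, is not given in the sources used here; from nested genes, reads were counted over whole spans on either strand. All 43714 IDs are in GENCODE release 29 (GRCh38), whose positions are printed, and 43289 have a current symbol.

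The test was that of edgeR 4.0.16 under R 4.3.3 (TMM, filterByExpr with minimum count 10 and minimum total 15, robust quasi-likelihood F test, line as the only term, Benjamini-Hochberg adjustment over 30952 genes, threshold 0.05); standard errors and 95% intervals come from its F statistic. The test was also run on counts simulated from its own fitted means, library sizes and dispersions. Such counts meet its assumptions by design, so they cannot show whether these suit the 4 libraries. Tried beside it were scaling by RLE or by total count, no filter, 1 CPM in 2 libraries, DESeq2 1.42.0, voom from limma 3.58.1, the library number as a block, each library left out, genes without overlaps, and members less the listed genes inside them. Libraries of a line differed beyond sampling noise (17.1 in the reporter-positive and 32.8 in the reporter-negative line, chi-square over its degrees of freedom), so none was a copy.

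The members and lists were chosen with earlier results of these data known. The 10 members are all named, with up to 4 called genes per list by smallest adjusted p, or the 2 highest in CPM where none was called. Of these, 1 transporter gene and 1 mTORC1 gene are not reported here. ATF3, CEBPA, EIF2AK3, EIF2AK4, PPP1R15A, SLC7A11, TSC2, CHAC2 and those given for position or motifs were named after their values were seen. Where GENCODE overlaps are named, the overlapping gene had at least 10% of the counts.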

Additional observations from a re-analysis of the deposited data

How the results depend on the processing

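DDIT4 and TRIB3 passed under every alternative in which they were tested, and DDIT3 under all but 1, the fit without reporter-negative library 2. ATF4 was lost under 3 of 13, ASNS under 5 of 12 and PHGDH under 5 of 13, as given above; the cause was not tested. On scaling to total counts 3 of the 10 genes were called, DDIT4, TRIB3 and DDIT3. Restricted to genes without an overlapping gene, 3 of 6 members, 23 of 44 list genes and 2204 of 9888 genes were called, fewer genes being tested. Without single libraries 2 to 6 members, 31 to 88 list genes and 4358 to 9161 genes in all were called; all genes were fewest without reporter-negative library 1. DESeq2 called 4 members and 5375 genes. The log2 fold change of CHAC1, never called, turned to -0.0068 on scaling to total counts and ran from -0.12 to 0.30 without single libraries, and that of PSAT1 ran from -0.0498 to 0.21. PPP1R15A, never called, went to -0.0769 on scaling to total counts and to -0.0084 among genes without overlaps, and ran from -0.0184 to 0.0311 without single libraries. CEBPA, never called, ran from -0.50 to 0.21 without single libraries. The list totals by direction stand above. With the library number as a block 6 members were called and 8226 genes in all. Deviations of same-numbered libraries correlated at 0.0079, so the numbers were not taken to pair the libraries. With 2 libraries per line, the 95% intervals of CHAC1, SESN2 and PSAT1, which did not pass, still hold rises of about the size called in others. That of ATF5, -0.36 to 0.04, holds none of the rises called among the 10 genes.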

Other observations

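Genes of mitochondrial chaperones and proteases, which guard protein folding in the organelle and belong to the stress that ATF5 serves, moved both ways. Of 9 tested 4 rose, 1 fell and 4 did not pass, with a median log2 fold change of 0.11. YME1L1, an inner membrane protease gene that overlaps MASTL, rose 1.33-fold to 206 and 220 CPM in the reporter-positive libraries, against 159 and 161 CPM in the reporter-negative libraries, and HSPA9, the gene of the matrix chaperone mortalin, rose 1.20-fold, as did LONP1, a matrix protease gene that overlaps the more highly counted RPL36. CLPX, the unfoldase partner of the protease CLPP, fell to 26.5 and 26.6 CPM, against 38.7 and 38.8 CPM, a log2 fold change of -0.55 (edgeR, adjusted p = 1.14e-05). HSPA9 and LONP1 were lost without either reporter-negative library and on scaling to total counts. Without reporter-negative library 1 or 2, or on scaling to total counts, 2 genes of this list were called.

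The close relatives of TRIB3 and CHAC1 did not pass the test. TRIB1 was at 32.2 and 33.9 CPM and TRIB2 at 146 and 157 CPM in the reporter-positive and reporter-negative line (edgeR, adjusted p = 0.561 and 0.358), and CHAC2, which overlaps GPR75-ASB3, was at 4.46 and 3.71 CPM (adjusted p = 0.281). TRIB2 was called lower on scaling to total counts and without reporter-positive library 2 (edgeR, adjusted p = 0.0458 and 0.0384). The difference between TRIB3 and its relatives was not tested.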
